A study of Mus musculus with 8 samples.

Results

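The genes described here encode the contractile and calcium-handling machinery of skeletal muscle fibres, fast and slow, as measured in a fat pad. Of 40 listed mouse genes, 39 were matched by RefSeq accession to a row of the deposited tables, out of 23360 genes or unnamed accessions kept from their 23373 rows, and 36 of them were among the 14591 genes with enough signal to test. Myh2, the myosin of fast oxidative fibres, was not matched and has no value here. Tnni1, Myoz2 and Sln were matched but reached a value of 10 in only 3 libraries, below the filter, so their values are given without a test. The tissue was inguinal white fat, which lies under the skin of the groin, taken from mice aged 6 weeks. In the 4 Lsd1 KO libraries, Lsd1, a histone demethylase encoded by Kdm1a, had been deleted by crossing floxed Lsd1 mice to Adipoq-Cre, a transgene active in adipocytes. The 4 control libraries came from mice that carried floxed Lsd1. Since there were no mice with Adipoq-Cre alone, loss of Lsd1 and presence of the transgene cannot be told apart. The labels do not state that each library came from a separate mouse, so each p-value reflects only how these samples vary, and part of that variation may be technical. Values are read counts that the authors scaled by 1 factor per library, called scaled reads below, from libraries of 25671837 to 32442724 recovered reads.

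In a muscle fibre, myosin heads of the thick filament pull on actin of the thin filament when calcium binds the troponin complex. Calcium is released from the sarcoplasmic reticulum through the ryanodine receptor and pumped back by a calcium ATPase. Fast and slow fibres build the same machine from different paralogues, so that myosin heavy and light chains, the troponins, calsequestrin and calsarcin exist in fast and slow forms. Several slow-fibre forms are shared with heart muscle. White adipocytes are not known for any of these sarcomeric genes, although tropomyosins and desmin also occur in other cells. The inguinal pad lies between the skin, which in mice carries a thin sheet of striated muscle, and the muscles of the body wall and thigh. The labels name fat as the only tissue. Kdm1a itself had 566, 578, 547 and 581 scaled reads in knockout replicates 1 to 4, against 699, 685, 799 and 735 in control replicates 1 to 4, with no overlap (log2 fold change -0.36, SE 0.08, limma adjusted p = 0.0498).

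Muscle fibre transcripts made up a small but widely varying part of each library. The 39 matched genes together held 1.90%, 1.77%, 0.164% and 1.13% of the scaled reads in knockout replicates 1 to 4, against 0.275%, 0.303%, 0.399% and 0.118% in control replicates 1 to 4. Knockout replicates 1, 2 and 4 therefore lay above every control, whereas knockout replicate 3 lay below 3 of the 4 controls. The means were 1.24 ± 0.793% in knockouts and 0.274 ± 0.116% in controls (SD, n = 4 each), and the groups overlapped. Knockout replicates 1, 2 and 4 were all above every control for 28 of the 39 matched genes (27 of the 36 tested), a pattern seen in 9.01% of all tested genes. These libraries were picked by the summed level of the same genes, many of which vary together. The count is therefore a description and not separate support. Knockout replicate 3 lay within the range of the controls for 27 of the 39, below every control for 9 and above every control for 3. In bulk tissue, a different number of muscle cells and a different amount of RNA per cell cannot be told apart.

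**Figure D1:**
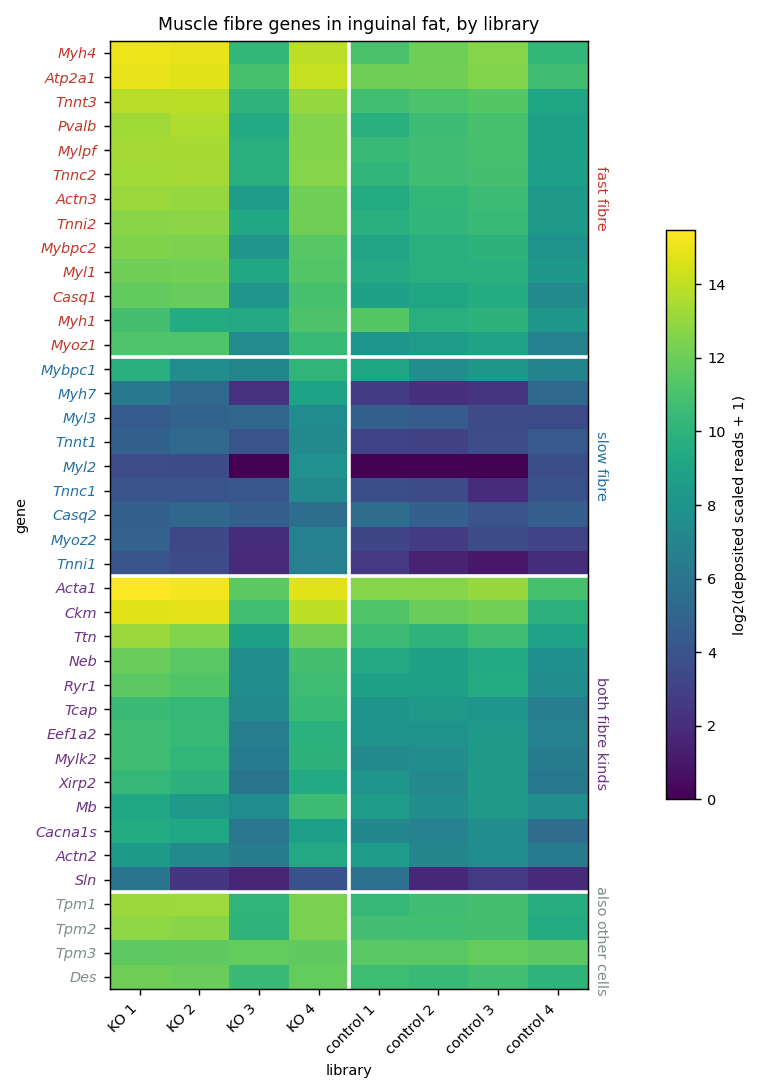
Heat map of log2(scaled reads + 1) for the 39 matched genes (rows, grouped by fibre class) in the 4 knockout and the 4 control libraries (columns). Fast-fibre genes other than Myh1 are bright in knockout replicates 1, 2 and 4 and darker in knockout replicate 3 and the controls, Tpm3 is even across all 8 libraries, and most slow-fibre genes are highest in knockout replicate 4.

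Whether a muscle fibre gene passed the test between genotypes with all 8 libraries depended on the tool. Of the 36 tested genes, 0 passed in limma without weights ( Benjamini-Hochberg adjusted p under 0.05 over all 14591 genes), against 1.64% of all tested genes (1.28% higher and 0.356% lower in the knockouts). At an unadjusted limma p under 0.05 there were 18 of 36, against 14.5% of all tested genes. The median log2 fold change, knockout over control on the log2(value + 1) scale, was 1.83 over the 36 genes and 0.02 over all tested genes. That scale understates the change of low genes. All 36 were positive, against 54.6% of all tested genes. Many of the 36 vary together across libraries, so counts among them are not counts of separate results. The edgeR quasi-likelihood test on recovered reads also called 0 of 36, against 1.49% of all genes, with 31 of 36 at an unadjusted p under 0.05, against 15.3% of all genes. DESeq2 on recovered reads called 11 of 34 as higher, against 5.32% of all genes in either direction and 3.37% as higher. They were Ckm, Myl1, Myl3, Mylpf, Tnnt1, Tnni2, Tnnc2, Tpm1, Pvalb, Des and Tcap, with DESeq2 adjusted p from 0.000756 (Des) to 0.0491 (Mylpf). With array quality weights, limma called 24 of 36 as higher, against 5.53% in either direction and 3.92% as higher.

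In limma without weights the count depended on 1 library. Without knockout replicate 3, 25 of 36 genes passed as higher in the knockouts (limma, Benjamini-Hochberg adjusted p under 0.05), against 2.49% of all tested genes as higher, 0.469% as lower and 2.96% in either direction. The median log2 fold change over the 36 genes was then 2.62, against 0.03 over all tested genes. Leaving out any other single library, or control replicates 1 and 2 together, gave 0 calls among the muscle genes, with 0.491 to 1.64% of all tested genes called. Knockout replicate 3 stands out through its low values of these same genes, so its omission favours such calls. Adjusted p-values without it, here and below, describe dependence on 1 library and are no separate support for a difference. Among the 25 were 12 of 13 fast-fibre genes and 10 of 12 tested genes of both fibre kinds, whereas 0 of 7 tested slow-fibre genes passed. The other 3 were Tpm1, Tpm2 and Des. All 24 genes called with quality weights were among these 25, as were 9 of the 11 called by DESeq2. The quality weight was lowest for knockout replicate 3 (0.416) and highest for control replicate 4 (2.53). The weighted fit thus partly repeats the omission of knockout replicate 3, and the overlap is not agreement between separate data.

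**Figure D2:**
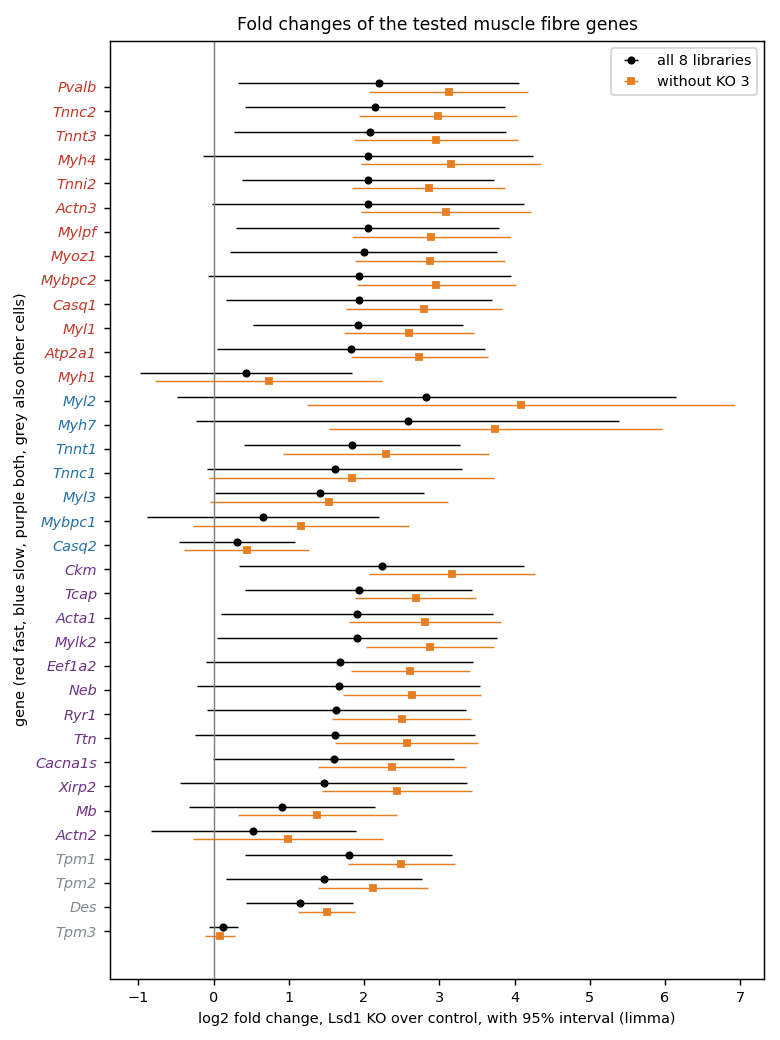
Log2 fold changes (Lsd1 KO over control) of the 36 tested genes with 95% intervals from limma, with all 8 libraries (black) and without knockout replicate 3 (orange). With all libraries the fast-fibre estimates other than Myh1 cluster near 2 with wide intervals, and without knockout replicate 3 the intervals of 12 of 13 fast-fibre genes lie well above 0.

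Of the thick filament genes, Myh4 encodes the myosin heavy chain of the fastest, glycolytic IIb fibres. It had 34498, 32245, 1211 and 15501 scaled reads in knockout replicates 1 to 4, against 2109, 4253, 6352 and 1230 in control replicates 1 to 4. Knockout replicate 3 was the lowest of all 8 libraries, and the other 3 knockouts exceeded every control. The means were 20864 ± 15604 in knockouts and 3486 ± 2294 in controls (log2 fold change 2.05, SE 0.98; limma adjusted p = 0.379). Without knockout replicate 3 the log2 fold change of Myh4 was 3.16 (SE 0.53, limma adjusted p = 0.0144).

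Myh1, the heavy chain of fast IIx fibres, followed another order. Its scaled reads were 1927, 745, 645 and 2291 in knockout replicates 1 to 4, against 2630, 817, 1037 and 289 in control replicates 1 to 4. Control replicate 1 was the highest library, and the groups overlapped throughout (log2 fold change 0.43, SE 0.63, limma adjusted p = 0.803). Without control replicate 4 its log2 fold change turned to -0.11. Myh1 and Myh4 are neighbours on chromosome 11 (GRCm38.p6, bases 67200102 to 67224577 and 67237812 to 67260447), and reads from these closely related genes may be exchanged in counting. The slow heavy chain Myh7, also the main myosin of the adult human ventricle, had 75.8, 38.1, 3.54 and 509 scaled reads in knockout replicates 1 to 4. In control replicates 1 to 4 Myh7 had 5.37, 3.44, 3.92 and 38.2. It was highest in knockout replicate 4, and control replicate 4 stood above the other controls (log2 fold change 2.58, SE 1.26, limma adjusted p = 0.391).

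The composition of the heavy chains differed between libraries of the same genotype. Per kilobase of transcript, Myh4 made up 94.45%, 97.6%, 64.8% and 84.6% of the sum of Myh1, Myh4 and Myh7 in knockout replicates 1 to 4, against 44.1%, 83.7%, 85.8% and 78.8% in control replicates 1 to 4. The share of Myh1 was 5.35%, 2.29%, 34.99% and 12.7% in the knockouts and 55.8%, 16.3%, 14.2% and 18.8% in the controls. Control replicate 1 was the one library in which Myh1 exceeded Myh4 per length. Myh7 reached 2.73% in knockout replicate 4 and 2.40% in control replicate 4, and was at most 0.204% in the other 6 libraries. Myh2 is missing from these sums.

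**Figure D3:**
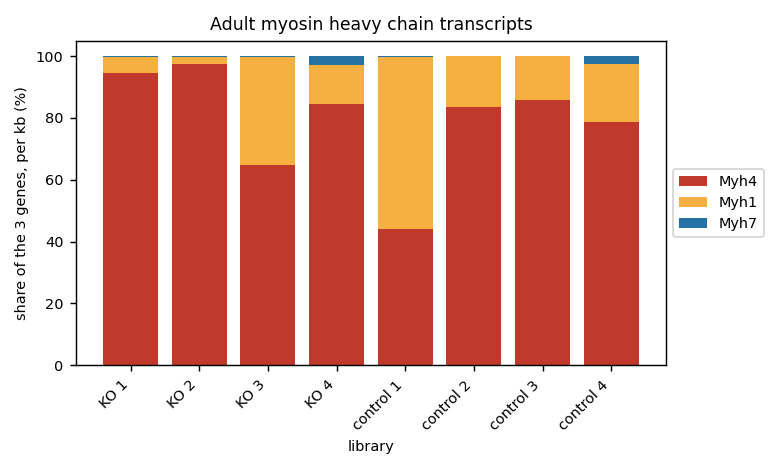
Stacked bars of the shares of Myh4, Myh1 and Myh7 in the sum of the 3 genes, per kilobase of transcript, in each library. Myh4 forms most of the sum except in control replicate 1, and Myh7 is visible in knockout replicate 4 and control replicate 4.

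Fast light chains followed Myh4. Mylpf, the fast regulatory light chain, had 10482, 10948, 858 and 6312 scaled reads in knockout replicates 1 to 4, against 1392, 1703, 2005 and 449 in control replicates 1 to 4. Only knockout replicate 3 lay among the controls (log2 fold change 2.05, SE 0.78, limma adjusted p = 0.270). Myl1, the fast essential light chain, was at 3096 ± 1936 in knockouts and 685 ± 283 in controls (log2 fold change 1.92, limma adjusted p = 0.192). The slow regulatory light chain Myl2, shared with heart, was listed at 0 in knockout replicate 3 and in control replicates 1 to 3. It had 11.5, 10.9 and 229 scaled reads in knockout replicates 1, 2 and 4 and 12.4 in control replicate 4. Myl3, the slow essential light chain, had 19.6, 28.8, 33.2 and 182 in the knockouts, against 25.9, 20.6, 10.8 and 10.3 in the controls. Knockout replicate 4 thus stood out for both slow light chains. Neither passed in limma (adjusted p 0.429 for Myl2 and 0.336 for Myl3). DESeq2 called Myl3 (log2 fold change 1.93, DESeq2 adjusted p = 0.0478), and likewise the fast chains Myl1 (2.15, DESeq2 adjusted p = 0.0275) and Mylpf (2.34, DESeq2 adjusted p = 0.0491), but gave Myl2 no adjusted p.

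The myosin-binding proteins brace the thick filament. The fast form Mybpc2 was at 3606 ± 2630 in knockouts and 656 ± 344 in controls (log2 fold change 1.94, limma adjusted p = 0.366). The form named slow, Mybpc1, had 839, 193, 137 and 1116 scaled reads in knockout replicates 1 to 4, against 545, 197, 292 and 127 in control replicates 1 to 4, with mixed groups. Mybpc1 is counted with the slow-fibre genes throughout by that name. Within the controls, however, its order was that of the fast-fibre gene Myh1 and not that of Myh7. Mylk2, the kinase of the regulatory light chain in skeletal muscle, had 1704, 1196, 84.5 and 1005 in the knockouts and 159, 187, 328 and 89.2 in the controls. Knockout replicate 3 was below all 4 controls for Mylk2 (log2 fold change 1.91, SE 0.83, limma adjusted p = 0.332).

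Of the thin filament genes, Acta1, the actin of skeletal muscle, was the most abundant of all 39 genes per length. It had 45249, 38179, 2986 and 27678 scaled reads in knockout replicates 1 to 4, against 6567, 6347, 8632 and 1982 in control replicates 1 to 4. Per kilobase this was 19725 ± 12788 in knockouts and 4068 ± 1934 in controls (SD, n = 4 each). The log2 fold change was 1.91 (SE 0.81, limma adjusted p = 0.317), and 2.81 without knockout replicate 3 (SE 0.45, limma adjusted p = 0.0122). Tnnc2, the calcium-binding troponin C of fast fibres, came next per kilobase, with 10030 ± 6457 in knockouts and 1846 ± 943 in controls. The fast troponin T gene Tnnt3, which anchors the complex to tropomyosin, and the fast inhibitory subunit Tnni2 lie close together on chromosome 7. Tnnt3 was at 9548 ± 6309 scaled reads in knockouts and 1790 ± 901 in controls (log2 fold change 2.08, limma adjusted p = 0.277). Tnni2 was at 4680 ± 2929 in knockouts and 932 ± 468 in controls (log2 fold change 2.05, limma adjusted p = 0.247). For each of these fast troponins, knockout replicate 3 was below 3 of the 4 controls.

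Slow troponins were low in all libraries and peaked in knockout replicate 4. Tnnc1, the troponin C of slow fibres and heart, had 15.3, 15.2, 17.7 and 166 scaled reads in knockout replicates 1 to 4, against 12.2, 11.3, 2.94 and 13.9 in control replicates 1 to 4. It was the only one of the 36 tested genes whose groups did not overlap, and 5.06% of all tested genes did so in that direction. Its fold change did not pass (log2 fold change 1.61, SE 0.76, limma adjusted p = 0.373). Tnnt1 had 26.7, 37.5, 15.04 and 169 in the knockouts and 7.81, 6.88, 11.8 and 19.1 in the controls (log2 fold change 1.84, limma adjusted p = 0.230). DESeq2 called Tnnt1 (DESeq2 adjusted p = 0.00734). Tnni1, not tested, had 16.9, 10.9, 2.65 and 106 scaled reads in the knockouts, against 4.88, 1.97, 0.980 and 3.09 in the controls.

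Tropomyosins, which cover the myosin-binding sites on actin, differed from one another. Tpm1 had 9121, 9357, 1089 and 5184 scaled reads in knockout replicates 1 to 4, against 1268, 1702, 1934 and 796 in control replicates 1 to 4, the order of the fast-fibre gene Mylpf. Tpm2 was at 5079 ± 2815 in knockouts and 1571 ± 571 in controls (log2 fold change 1.47, limma adjusted p = 0.288). Tpm3, which encodes the slow-fibre form and also non-muscle forms that these rows cannot separate, had 3129, 3330, 3631 and 3339 in the knockouts and 2956, 2858, 3522 and 2986 in the controls. Across the 8 libraries Tpm3 varied 1.27-fold, against 29.3-fold for Ckm. Its log2 fold change was 0.13 (95% interval -0.07 to 0.32, limma adjusted p = 0.548).

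Promoters are shown for 4 genes, Acta1, Myh4 and the fast and slow forms of troponin C, because the first 3 varied together across libraries and Tnnc1 followed another order. Each sequence is RefSeq's 300 bases in GRCm38.p6, from 250 bases before the annotated start to 50 after, read in the direction of the gene. Acta1 is chr8:123894726-123895025 on the minus strand, Myh4 chr11:67237562-67237861 on the plus strand, Tnnc2 chr2:164779685-164779984 on the minus strand and Tnnc1 chr14:31208062-31208361 on the plus strand. Capitals mark matches to the E-box CANNTG, the site class bound by myogenic basic helix-loop-helix factors, to the TATA box TATAAA, to the CArG box bound by serum response factor, and to the MEF2 motif, all on either strand.
Acta1: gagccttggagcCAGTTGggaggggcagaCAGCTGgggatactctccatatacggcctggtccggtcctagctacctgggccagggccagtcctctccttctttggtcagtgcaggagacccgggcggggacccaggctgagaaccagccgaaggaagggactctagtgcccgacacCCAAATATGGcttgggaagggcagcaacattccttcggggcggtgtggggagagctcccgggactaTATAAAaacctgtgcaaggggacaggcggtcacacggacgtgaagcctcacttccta
Myh4: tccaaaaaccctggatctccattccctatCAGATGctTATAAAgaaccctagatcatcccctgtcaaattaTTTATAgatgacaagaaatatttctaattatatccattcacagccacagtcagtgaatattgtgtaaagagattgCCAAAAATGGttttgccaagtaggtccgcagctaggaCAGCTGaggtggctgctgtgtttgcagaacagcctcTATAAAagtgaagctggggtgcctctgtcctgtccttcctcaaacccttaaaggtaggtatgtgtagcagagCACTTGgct
Tnnc2: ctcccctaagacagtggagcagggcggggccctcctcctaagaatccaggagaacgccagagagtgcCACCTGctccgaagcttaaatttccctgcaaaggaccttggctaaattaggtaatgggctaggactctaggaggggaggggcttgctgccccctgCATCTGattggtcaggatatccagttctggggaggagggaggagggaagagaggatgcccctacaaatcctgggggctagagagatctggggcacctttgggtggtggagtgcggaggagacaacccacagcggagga
Tnnc1: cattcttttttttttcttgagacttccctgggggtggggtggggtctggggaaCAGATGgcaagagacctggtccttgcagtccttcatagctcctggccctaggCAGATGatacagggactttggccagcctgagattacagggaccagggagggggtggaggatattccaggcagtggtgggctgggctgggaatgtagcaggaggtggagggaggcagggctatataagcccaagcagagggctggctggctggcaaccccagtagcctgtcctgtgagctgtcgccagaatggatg
The Acta1 window held 2 E-boxes, 1 CArG box and 1 match to TATAAA. That of Myh4 held 3 E-boxes, 1 CArG box and 3 matches to TATAAA, at positions -213, -179 and -31 from the start. A match to these letters far from the start need not be a TATA box in use. Both troponin C windows held 2 E-boxes and no match to the other motifs as searched. Forms outside the searched patterns were not counted, whether or not a factor can bind them. Thus tatataa in the Tnnc1 window was not counted as a TATA box, nor ttatttatag in the Myh4 window as a MEF2 motif. The latter stretch holds the match to TATAAA at -179. The Myh4 window is therefore not shown to lack a MEF2 site, and the MEF2 counts below hold for the searched pattern alone. Over the 32 of 40 listed genes with a promoter in the table (the first listed for each gene), 28 held an E-box (87.5%), against 72.1% of 27025 promoters. At least 2 E-boxes were found in 56.2% of the 32, against 39.6% of all. TATAAA was in 6 (18.8%), against 14.2% of all. Over the promoters of the 11183 tested genes in the table, the shares were 64.1% for an E-box, 29.2% for at least 2 and 7.49% for TATAAA. A CArG box was in 3 (Acta1, Myh4 and Myl3, 9.38%), against 1.57% of all, and a MEF2 motif in 3 (Ttn, Xirp2 and Myoz2, 9.38%), against 0.566%. Over the tested genes these were 1.41% for a CArG box and 0.438% for a MEF2 motif. A match describes the letters in this window and not the binding of a factor.

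Z-disc genes, whose products link thin filaments of neighbouring sarcomeres, held the smallest adjusted p of the whole group. Des, the intermediate filament protein desmin, which smooth muscle and pericytes also make, had 4476, 4127, 1482 and 3520 scaled reads in knockout replicates 1 to 4, against 1638, 1353, 1727 and 1053 in control replicates 1 to 4. Only knockout replicate 3 lay among the controls (log2 fold change 1.14, SE 0.32, limma adjusted p = 0.130). DESeq2 called Des (log2 fold change 1.21, DESeq2 adjusted p = 0.000756), as did limma without knockout replicate 3 (log2 fold change 1.504, limma adjusted p = 0.00352). Actn3, the alpha-actinin of fast fibres, was at 5498 ± 3959 in knockouts and 944 ± 535 in controls (log2 fold change 2.05, limma adjusted p = 0.350). Its relative Actn2, found in all fibres, had 345, 158, 92.5 and 653 in the knockouts and 378, 129, 185 and 83.5 in the controls, with mixed groups. The fast calsarcin gene Myoz1 was at 1592 ± 1041 in knockouts and 312 ± 157 in controls (log2 fold change 1.99, limma adjusted p = 0.291). The slow calsarcin gene Myoz2, not tested, had 28.4, 9.25, 3.10 and 110 in the knockouts and 8.30, 5.41, 10.8 and 7.74 in the controls. Tcap, which caps titin at the Z-disc, was at 1076 ± 614 in knockouts and 233 ± 95.04 in controls (log2 fold change 1.93, limma adjusted p = 0.230).

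The giant scaffold proteins were read from long transcripts. Ttn, the titin spring, had 9130, 6212, 451 and 4415 scaled reads in knockout replicates 1 to 4, against 1526, 1046, 1684 and 473 in control replicates 1 to 4. Knockout replicate 3 was below all 4 controls (log2 fold change 1.62, limma adjusted p = 0.418). Neb, nebulin, the thin filament ruler, was at 2278 ± 1645 in knockouts and 503 ± 221 in controls (log2 fold change 1.66, limma adjusted p = 0.409). Xirp2, an actin-binding repeat protein of the Z-disc region, was at 758 ± 521 in knockouts and 202 ± 107 in controls. Without knockout replicate 3 Ttn, Neb and Xirp2 passed (limma adjusted p = 0.0134, 0.0110 and 0.0208).

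Among the calcium-handling genes, Atp2a1, the calcium pump SERCA1 of fast fibres, had 31160, 27854, 2001 and 17534 scaled reads in knockout replicates 1 to 4, against 4263, 4391, 6218 and 1660 in control replicates 1 to 4. Knockout replicate 3 was below 3 controls (log2 fold change 1.82, SE 0.80, limma adjusted p = 0.332). Pvalb, parvalbumin, a soluble calcium buffer of fast fibres, had 9888, 12553, 702 and 6242 in the knockouts and 895, 1554, 1972 and 450 in the controls. Its log2 fold change of 2.19 (SE 0.83, limma adjusted p = 0.269) was the largest among the fast-fibre genes. Ryr1, the calcium release channel, was at 1847 ± 1247 in knockouts and 456 ± 225 in controls, and Cacna1s, the voltage sensor that gates it, was at 457 ± 290 in knockouts and 125 ± 62.1 in controls. Neither passed with all libraries (limma adjusted p 0.372 for Ryr1 and 0.346 for Cacna1s).

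Calsequestrin is the calcium store of the sarcoplasmic reticulum. The fast form Casq1 was at 2354 ± 1583 scaled reads in knockouts and 484 ± 245 in controls (log2 fold change 1.93, limma adjusted p = 0.304). The slow and cardiac form Casq2 had 26.2, 34.3, 24.3 and 47.9 in knockout replicates 1 to 4, against 45.9, 25.6, 14.7 and 24.8 in control replicates 1 to 4. The groups overlapped (log2 fold change 0.31, 95% interval -0.46 to 1.08, limma adjusted p = 0.725). Sln, sarcolipin, a small inhibitor of the calcium pump, had 62.2, 4.35, 2.21 and 13.98 in the knockouts and 56.1, 2.46, 4.90 and 2.58 in the controls. Knockout replicate 1 and control replicate 1 were high, and the other libraries held 13.98 or fewer.

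Of the energy genes, Ckm, the muscle creatine kinase, had 27435, 29010, 1763 and 16479 scaled reads in knockout replicates 1 to 4, against 2470, 4011, 4842 and 990 in control replicates 1 to 4. Knockout replicate 3 was below 3 controls, and the means were 18672 ± 12575 in knockouts and 3078 ± 1704 in controls (log2 fold change 2.23, SE 0.85, limma adjusted p = 0.270). Without knockout replicate 3 the log2 fold change was 3.17 (SE 0.49, limma adjusted p = 0.0110). Mb, myoglobin, the oxygen store of oxidative fibres and heart, had 580, 332, 181 and 1585 in the knockouts and 352, 202, 328 and 190 in the controls, and it was highest in knockout replicate 4 (log2 fold change 0.91, limma adjusted p = 0.502). Eef1a2, the translation elongation factor of muscle and neurons, was at 1031 ± 694 in knockouts and 229 ± 92.7 in controls (log2 fold change 1.68, limma adjusted p = 0.375).

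Levels of the fast-fibre genes kept nearly constant proportions to Ckm while Ckm itself varied 29.3-fold across the 8 libraries. Of 13 fast-fibre genes, 11 varied less than 2-fold relative to Ckm. The tightest was Pvalb, at 36.0 to 43.3% of the Ckm value in knockouts and 36.2 to 45.4% in controls, a 1.26-fold range. Tnnc2 followed at 36.8 to 49.1% in knockouts and 39.0 to 46.5% in controls (1.33-fold). The exceptions were Myl1 (2.16-fold) and Myh1 (41.5-fold). By contrast, the slow-fibre genes varied 19.8- to 47.6-fold relative to Ckm, leaving out Myl2, which was listed at 0 in 4 libraries. A nearly flat gene also ranges widely by this measure, because Ckm varies. Tpm3, whose own values varied 1.27-fold, varied 26.4-fold relative to Ckm. Among the slow-fibre genes, the own values of Casq2 varied 3.26-fold and those of Mybpc1 8.76-fold. A wide range here thus means that a gene did not follow Ckm, not that it varied strongly. Genes of both fibre kinds ranged from 2.02-fold for Acta1 to 16.8-fold for Mb, 28.1-fold for Actn2 and 152-fold for Sln. These ratios compare each gene with itself across libraries, and they share Ckm as the denominator.

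**Figure D4:**
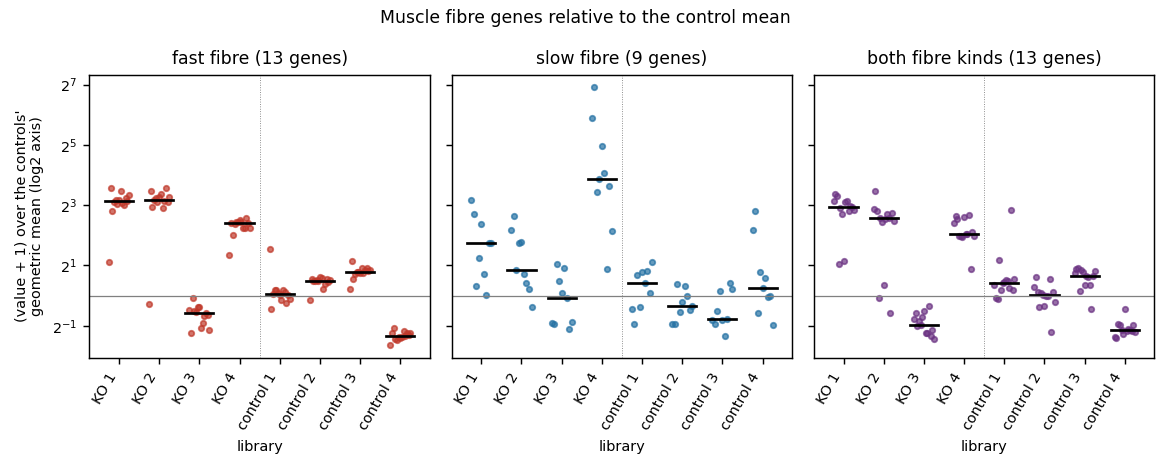
Level of each gene (points) relative to the geometric mean of the controls, on a log2 axis, in each library, with the median as a bar. The fast-fibre medians are 8.73, 9.05, 0.666 and 5.29 in knockout replicates 1 to 4 and 1.03, 1.41, 1.73 and 0.397 in control replicates 1 to 4, whereas the slow-fibre median is highest, at 14.7, in knockout replicate 4.

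Relative to the geometric mean of the controls, the median of the 13 fast-fibre genes was 8.73, 9.05, 0.666 and 5.29 in knockout replicates 1 to 4 and 1.03, 1.41, 1.73 and 0.397 in control replicates 1 to 4. For the 9 slow-fibre genes the medians were 3.32, 1.79, 0.951 and 14.7 in the knockouts and 1.34, 0.784, 0.589 and 1.19 in the controls. All 9 slow-fibre genes were highest in knockout replicate 4, whereas 0 of the 13 fast-fibre genes were. Fast-fibre genes peaked in knockout replicate 2 (7 genes), knockout replicate 1 (5) or control replicate 1 (Myh1). Among the controls, control replicate 4 was the lowest for 13 of 13 fast-fibre genes. Without knockout replicate 4 the log2 fold change was 0.73 for Myl3 (1.41 with all libraries), 0.78 for Tnnc1 (1.61), 1.16 for Tnnt1 (1.84), 0.16 for Mybpc1 (0.65) and 0.12 for Casq2 (0.31). Of the genes of both fibre kinds, that of Mb was then 0.34 (0.91 with all libraries) and that of Actn2 0.05 (0.53). Without control replicate 3 that of Casq2 was 0.06.

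Whether the balance of slow to fast forms differed between genotypes was asked for 9 pairs of paralogues, as log2 ratios taken within each library. None of the 9 passed (exact two-sided permutation test over 70 assignments, p 0.171 to 0.857, adjusted p = 0.857 for each pair, n = 4 per group). The smallest p that this design allows is 0.0286, which adjusts to 0.257 for 1 pair alone, so at least 6 pairs would have had to reach it together to pass. The test therefore could not pass a single pair. The lowest p was that of Casq2 to Casq1, whose mean log2 ratio was -5.61 ± 1.64 in knockouts and -3.99 ± 1.27 in controls (difference -1.62, exact permutation p = 0.171). Mybpc1 to Mybpc2 had -2.47 ± 1.77 in knockouts and -1.19 ± 0.957 in controls (difference -1.28, exact permutation p = 0.257). Spread within each genotype was large for the myosin pairs. The log2 ratio of Myl2 to Mylpf was -9.72, -9.85, -9.75 and -4.78 in knockout replicates 1 to 4, against -10.4, -10.7, -11.0 and -5.07 in control replicates 1 to 4, so that replicate 4 of each genotype stood apart. Myh7 to Myh4 also set replicate 4 of each genotype apart. It had -4.93 in knockout replicate 4, against -9.69 to -8.06 in the other knockouts. Control replicate 4 had -4.97, against -10.3 to -8.37 in the other controls. At low counts these ratios depend on the pseudocount of 1. Replicate numbers follow the order of listing and match no samples between genotypes. The labels number knockout replicate 4 as sample 356 and control replicate 4 as 357, beside 358 to 361, 517 and 518 for the rest. What these numbers stand for is not stated, and their part was not tested.

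**Figure D5:**
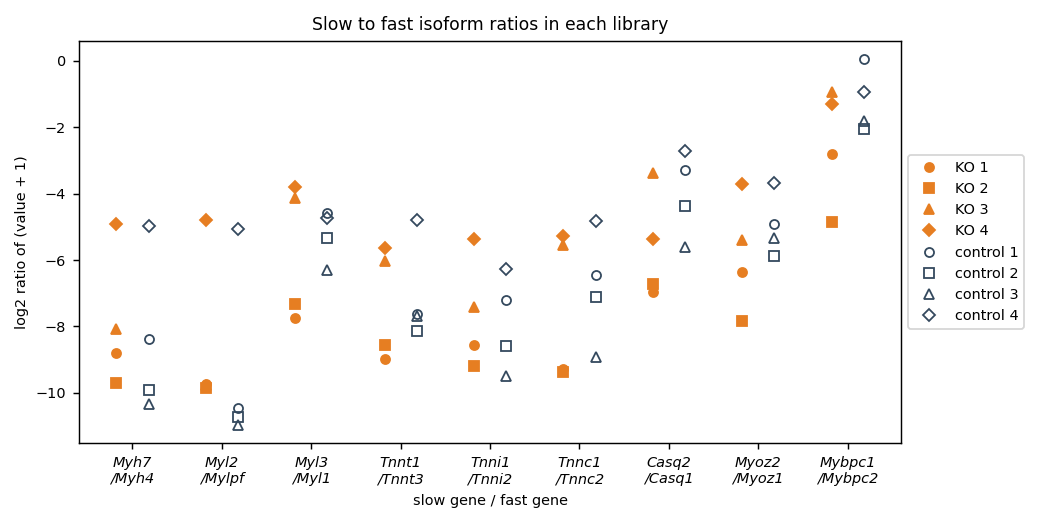
Log2 ratio of each slow gene to its fast paralogue (value + 1) in the 4 knockout (orange) and 4 control (dark, open) libraries. Groups overlap for all 9 pairs, and for Myh7 to Myh4 and Myl2 to Mylpf the fourth library of each genotype sits near -5, above the other 6.

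Other skeletal muscle genes followed the same libraries. Of 86 matched genes in 6 lists, 73 were tested and 1 passed with all libraries (limma, against 1.64% of all tested genes), with a median log2 fold change of 1.27. It was Slc25a4, an ADP/ATP carrier that many tissues make, with 5434, 5631, 5112 and 5546 scaled reads in knockouts and 3918, 4327, 3840 and 3643 in controls (log2 fold change 0.47, limma adjusted p = 0.0186). Without knockout replicate 3, 45 of 73 passed as higher and 0 as lower, beside the same background. Sarcomere and Z-disc genes outside the group gave 13 of 20 in that fit, excitation and calcium release genes 11 of 14, energy genes 12 of 16, atrophy and myokine genes 4 of 5, dystrophin complex genes 3 of 10, and myogenic and satellite cell genes 2 of 8. Pygm, the muscle glycogen phosphorylase, had 9070, 8299, 572 and 4860 in knockout replicates 1 to 4, against 1024, 1441, 1732 and 472 in control replicates 1 to 4. This was the order of Ckm, except that knockout replicate 1 exceeded knockout replicate 2. Atp2a2, the calcium pump of slow fibres that most cells also make, had 2837 to 2976 in knockouts and 2876 to 3268 in controls.

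Of 5 developmental myosin and actin genes, 4 were tested and 0 passed with all libraries (limma, against 1.64% of all tested genes). Without knockout replicate 3, 2 passed as higher, Actc1 and Myh3, against 2.49% of all tested genes. Actc1, the cardiac actin that developing and regenerating skeletal muscle also makes, had 278, 512, 24.3 and 136 scaled reads in knockout replicates 1 to 4, against 19.5, 19.7, 35.2 and 5.67 in control replicates 1 to 4. It was high in the same 3 knockouts as the fast-fibre genes (log2 fold change 3.06, SE 0.85, limma adjusted p = 0.128). Myl4, a light chain of atrium and embryonic muscle, had another order, with 72.5, 82.2, 110.1 and 80.9 in the knockouts and 70.3, 85.0, 61.7 and 62.4 in the controls. The 10 cardiac genes summed to 0.00130%, 0.00114%, 0.000814% and 0.00202% of knockout replicates 1 to 4, against 0.000838 to 0.00127% of the controls, highest in knockout replicate 4. Of the 5 tested, 0 passed, with or without knockout replicate 3 (limma). Over all tested genes the shares were 1.64% with all libraries and 2.96% without it, so 0 of 5 is near the background. Tnni3, the cardiac troponin I, was at 49.6 to 72.1 in knockouts and 44.2 to 63.2 in controls, and Hcn4, a pacemaker channel, at 15.04 to 45.8 in knockouts and 34.4 to 50.03 in controls. Of the 10, 4 were below 10 in all 8 libraries, Myl7, an atrial light chain, was at 1 or less and Nkx2-5 was listed at 0 in every library. Myh6, the neighbour and close paralogue of Myh7, had 151 scaled reads in knockout replicate 4 and 3.10 to 23.4 in the other knockouts, against 3.92 to 10.3 in controls.

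Skin epidermis genes (8 of 8 matched) summed to 0.0149%, 0.00685%, 0.00330% and 0.00416% of knockout replicates 1 to 4, against 0.00382 to 0.00448% of the controls. Krt5, a keratin of basal epithelial cells on the mammary list, had 237 and 82.2 scaled reads in knockout replicates 1 and 2, 0 in knockout replicates 3 and 4 and at most 0.490 in controls. The epidermal keratins Krt1 and Krt10 were likewise highest in knockout replicates 1 and 2, but not in knockout replicate 4. Krtdap, of the skin list, had 151, 89.25, 44.2 and 48.9 in knockout replicates 1 to 4 and 37.7 to 48.0 in controls. Sbsn, of the same list, had another order, with 653, 432, 355 and 470 in the knockouts and 441 to 521 in controls. Mammary epithelium genes (12 of 12 matched) summed to 0.00291 to 0.00726% in knockouts and 0.00349 to 0.00462% in controls, with Wap listed at 0 in all libraries. Smooth muscle genes (12 of 12) summed to 0.0445 to 0.0530% in knockouts and 0.0471 to 0.0508% in controls, with 0 of 12 called with all libraries (limma, against 1.64% of all tested genes). Without knockout replicate 3, 1 of 12 passed as higher, Lmod1, a leiomodin (log2 fold change 0.76, limma adjusted p = 0.0300), against 2.49% of all tested genes. Adipocyte genes (15 of 15) summed to 4.08 to 4.58% in knockouts and 5.06 to 6.34% in controls, and did not set knockout replicate 3, at 4.10%, apart from the other knockouts. Their part in the result was not tested. B cell and lymph node genes (12 of 12, 0.125 to 0.162% in knockouts and 0.0820 to 0.161% in controls), nerve genes (10 of 10, 0.0845 to 0.0907% in knockouts and 0.0716 to 0.0943% in controls) and brown or beige adipocyte genes (10 of 10, 0.0651 to 0.113% in knockouts and 0.0576 to 0.128% in controls) overlapped between genotypes.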

How the data were processed

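RNA from 8 libraries was sequenced. Per the series design text, total RNA was extracted with Trizol, and reads were aligned to mm10 with TopHat version 2 and counted with HOMER. Annotation, strand setting and scaling: not given in the sources used here. The deposited files hold a signal per RefSeq accession, not raw counts. Within a tolerance of 0.02, 100.0% of values were whole multiples of 1 step per library, so the authors' values are read counts times 1 factor, and dividing by the step recovered whole reads. Even multiples were more frequent than odd ones (54.0 to 56.2%), so a step may be 1 end of a read pair. Of 23373 rows per file, 1 had no accession and a value of 0 and was left out.

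Accessions were named from RefSeq GRCm38.p6 (22523) or GENCODE M21 (128), and 721 were not named. For symbols with several rows the highest total was kept. Transcript lengths came from GENCODE M21. In 17 of the 39 genes, exons overlap those of another gene on the opposite strand (45 to 1309 bases), for example Tnnc2 with Ube2c and Atp2a1 with Rabep2, where reads cannot be told apart without strand.

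Genes that reached 10 in 4 or more libraries were fitted with limma 3.58.1 (R 4.3.3, mean-variance trend, pseudocount 1), checked on simulated reads. Alternatives were edgeR 4.0.16 and DESeq2 1.42.0 on recovered reads, other scalings, filters, pseudocounts and array weights, and left-out libraries. The named genes are all members, Kdm1a, and of each list at most the 3 with the highest mean, and a gene named beyond these (Krt1, Lmod1, Myh3, Myl7, Nkx2-5, Wap) was chosen after its values were seen. Members and lists were chosen with earlier results of these data known.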

Additional observations from a re-analysis of the deposited data

Results flagged for a closer look

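In groups of 4 libraries, 1 library lay far from the other 3 on the log2 scale for 10 of 98 sets of values checked (39 genes, 9 ratios and the summed level, in each genotype). Chance gives about 5% for separate sets, but these sets are not separate. The genes vary together, and the ratios and the sum reuse them, so the count is a description only. For Myl2 the other 3 controls were all listed at 0, which by itself sets control replicate 4 apart. Knockout replicate 4 was high for Tnnc1 (166.25 scaled reads) and for the log2 ratio of Myl2 to Mylpf (-4.781). Control replicate 4 was high for Myh7 (38.16 scaled reads), Myl2 (12.38) and the log2 ratios of Myl2 to Mylpf (-5.071) and of Tnnt1 to Tnnt3 (-4.791), and low for Tpm2 (722.03). Control replicate 3 was low for Tnnc1 (2.94 scaled reads). Knockout replicate 3 was low for Tpm2 (1051.88) and Tcap (166.32).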

How the results depend on the processing

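The number of muscle fibre genes called, 0 with limma without weights on all libraries, was 11 with DESeq2 and 24 with array quality weights, and ranged from 0 to 25 when 1 library was left out. Over all genes the count of 239 became 776 with DESeq2, 807 with quality weights, 98 without controls 517 and 518 (control replicates 2 and 1), and 71 to 429 without 1 library. Of the other muscle genes, 1 was called by that limma fit, 2 without a filter, 2 with edgeR, 19 with DESeq2, 43 with quality weights (42 of them higher) and 0 to 45 without 1 library. The cause of these differences was not tested. Scaling, pseudocount and filter left the count of muscle fibre genes at 0 and the sign of every tested fold change among them as it was. The exact test of the pairs could not pass a single pair in this design, so its counts of 0 say nothing about stability. Signs of the pair differences turned with a pseudocount of 5 for Myl2 to Mylpf (-0.26) and Tnni1 to Tnni2 (-0.43), and without controls 517 and 518 for Myh7 to Myh4 (-0.22) and Myl2 to Mylpf (-0.50). Without 1 library they ranged from -0.46 to 1.67 for Myh7 to Myh4, -0.47 to 2.19 for Myl2 to Mylpf, -1.16 to 0.15 for Myl3 to Myl1, -0.80 to 0.51 for Tnnt1 to Tnnt3, -0.51 to 0.79 for Tnni1 to Tnni2 and -1.23 to 0.13 for Tnnc1 to Tnnc2. That of Myh1 between genotypes ranged from -0.11 to 0.95. The summed level differed by 1.83 on the log2 scale and by 1.46 to 2.64 without 1 library. Low counts limit the slow-fibre genes, several of which had fewer than 20 scaled reads in most libraries. No paired analysis was possible because the sample numbers are not shared between genotypes.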
